A study of Mus musculus with 6 samples.

Results

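A group of 10 genes that write or remove repressive marks on chromatin was followed in haematopoietic stem cells (HSCs) of mouse bone marrow. The group held the DNA methyltransferases Dnmt1, Dnmt3a and Dnmt3b, the dioxygenases Tet1, Tet2 and Tet3, the histone methyltransferases Ezh1 and Ezh2, the Polycomb subunit Bmi1 and the chromatin regulator Asxl1. The genes were chosen by symbol, and 10 of 10 were found among the 46959 rows of the deposited expression table. All 10 were among the 12955 genes that were expressed enough to be tested.

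Maea encodes a RING subunit of an E3 ubiquitin ligase complex, and the study asked how HSCs behave once it is deleted. Total RNA was sequenced from HSCs of MaeaCsf1r-Cre mice, which carry floxed Maea and a Csf1r-iCre transgene, and from control littermates, with 3 libraries per genotype. The mice were 8 weeks old by the labels, while the methods give a wider range for young adults. Csf1r-iCre had been backcrossed to C57BL/6 and is mostly used to target mononuclear phagocytes, and in these mice it also recombines in HSCs and in macrophages, so Maea is targeted in both cell types. The Maea alleles and Cre status of the control littermates of this experiment were given only as control. Each library held RNA of 2000 cells pooled from a pair of mice, sorted as cells negative for CD3e, B220, Gr-1, CD11b and Ter119, positive for Sca-1, c-Kit and CD150, and negative for CD48. The sources did not state whether libraries of a genotype were prepared on separate days, so p-values measure only the spread between these libraries, part of which may be technical.

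DNA methyltransferases place a methyl group on cytosine in CpG dinucleotides. Dnmt1 copies the mark onto the new strand after replication, Dnmt3a and Dnmt3b place it on unmethylated sites, and Tet enzymes oxidise it, which opens the way to its loss. Polycomb repressive complex 2 (PRC2) methylates a lysine of histone H3 through Ezh1 or Ezh2, and Polycomb repressive complex 1 (PRC1), to which Bmi1 belongs, ubiquitinates histone H2A. Asxl1 acts with the deubiquitinase Bap1 in a complex (PR-DUB) that takes this ubiquitin off again. In people, mutations in the genes for Dnmt3a, Tet2 and Asxl1 are the ones most often found in clonal haematopoiesis, and Bmi1 is required for HSC self-renewal.

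Maea itself was measured first, as a check of the labels. It was at 108, 116 and 123 CPM, read counts scaled to the depth of each library, in control replicates 1, 2 and 3, and at 76.9, 88.6 and 100.98 CPM in MaeaCsf1r-Cre replicates 1, 2 and 3. Every MaeaCsf1r-Cre library was below every control library, as held for 6.06% of all genes tested, although the values cover the whole gene and do not separate the deleted part. The fold change was 0.766 (95% interval 0.617 to 0.950), with an unadjusted p of 0.0214 and an adjusted p of 0.967 (limma), so Maea was not called. All 12 HSC marker genes were detected at 1 CPM or more in at least 1 library, and their summed level was 1084 to 1690 CPM in control and 731 to 1421 CPM in MaeaCsf1r-Cre libraries. The summed level of 20 cell division genes was 2020 to 2499 CPM in control and 1906 to 2848 CPM in MaeaCsf1r-Cre libraries. By mean log2(CPM + 1), 20 of 20 cell division genes were higher and 10 of 12 HSC markers lower in MaeaCsf1r-Cre HSCs, where 39.1% of all genes were higher and 60.9% lower. Of either list 0 had an adjusted p under 0.05 (limma), with 0.00772% over all genes. Of markers of other cells, 10 macrophage genes, 1 of them under 1 CPM in every library, summed to 20.7 to 68.3 CPM in control and 3.32 to 37.8 CPM in MaeaCsf1r-Cre libraries. A single gene gave 30.0 of the 37.8 CPM, in MaeaCsf1r-Cre replicate 3. The 8 B cell genes summed to 33.8 to 55.4 and 13.9 to 27.0 CPM, with 6 of these 8 under 1 CPM in every library. Of the 2 B cell genes tested, 1 was at 12.9 to 27.2 CPM in all libraries. The other was at 7.51 to 29.5 CPM in control and 0.279 to 2.26 CPM in MaeaCsf1r-Cre libraries. The mean was lower in MaeaCsf1r-Cre HSCs for 2 of 2 B cell and 6 of 6 macrophage genes tested. Groups did not overlap for 4 of these 6, all lower, as for 6.06% of all genes. Some of the 6 reached 1 CPM in control libraries alone, so choosing genes by level fixed both outcomes for them. The sums for 8 granulocyte and monocyte genes, 4 of them under 1 CPM throughout, were 27.9 to 229 and 4.60 to 118 CPM, for 6 erythroid genes 2580 to 7084 and 3028 to 7025 CPM, for 5 megakaryocyte genes 213 to 969 and 284 to 593 CPM, for 5 T and NK cell genes 41.0 to 63.2 and 41.7 to 87.3 CPM with 3 of them under 1 CPM throughout, and for 6 stromal and endothelial genes 40.0 to 92.8 and 20.02 to 99.5 CPM, in control and MaeaCsf1r-Cre libraries. The reads behind the scaling of a library were estimated at 32952000 to 39598000 in control and 44142000 to 60916000 in MaeaCsf1r-Cre libraries, so every MaeaCsf1r-Cre library was the deeper. The part of depth, of these other cells and of the cell division and HSC marker levels in the values of the 10 regulators was not tested.

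None of the 10 regulators passed the test of the difference between genotypes, in either direction. Each gene was compared on log2(CPM + 1) with limma's moderated test, two-sided, with Benjamini-Hochberg adjustment over all 12955 genes, and 0 of 10 regulators had an adjusted p under 0.05, where the share called over all genes was 0.00772%. The adjusted p was 0.967 for 9 of the regulators and 0.995 for Asxl1 (limma), and at an unadjusted p under 0.05 the count was 0 of 10, with 3.99% over all genes. For 0 of 10 did the control and MaeaCsf1r-Cre libraries fail to overlap, a state that held for 8.55% of all genes (6.06% lower and 2.49% higher). By the mean log2 fold change 8 were lower and 2 higher in MaeaCsf1r-Cre HSCs, where 60.9% of all genes were lower and 39.1% higher (7 lower and 3 higher after either rescaling, where Asxl1 turned, and 5 and 5 after correction for transcript length), and the median of the 10 was -0.18 against -0.058 for all genes tested. Leaving out single libraries moved the median of the 10 from -0.34, without control replicate 1, to -0.052, without control replicate 2. The 95% intervals of the fold change reached down to 0.509 for Tet1 and up to 1.54 for Ezh2, so larger shifts lie outside them. In libraries of pooled cells, fewer cells that express a gene and less RNA of it per cell cannot be told apart.

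**Figure D1:**
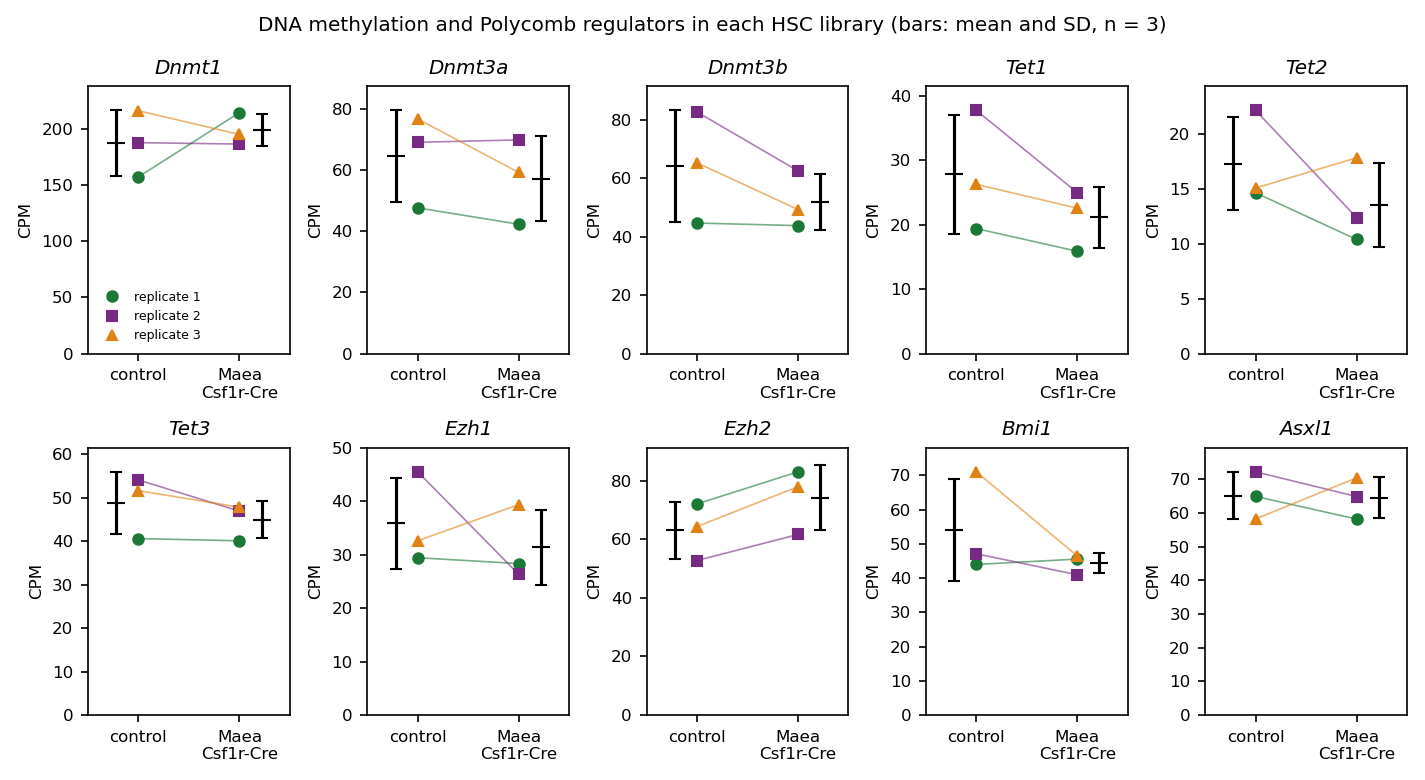
Expression of each of the 10 regulators in CPM (vertical axis, starting at 0) in control and MaeaCsf1r-Cre HSC libraries. Points are libraries, coloured lines join libraries with the same replicate number, and black bars give the mean and SD of 3 libraries. The genotypes overlap in every panel, Ezh2 lies higher on the right in all 3 lines, and Tet1, Dnmt3b and Tet3 lie lower in all 3, before any correction for transcript length.

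Libraries with the same replicate number deviated from their genotype means in the same direction, so the 3 same-numbered pairs were also compared. Ezh2 was higher in the MaeaCsf1r-Cre library of all 3 pairs, as were 13.2% of all genes tested, and it was the single regulator of which this held. Dnmt3b, Tet1 and Tet3 were lower in all 3 pairs, as were 23.5% of all genes. With the replicate number as a block, limma gave 0 of 10 with an adjusted p under 0.05 (0.00772% over all genes). At an unadjusted p under 0.05 the blocked fit counted Ezh2 as higher and Dnmt3b and Tet1 as lower, where 3.11% of all genes were higher and 10.8% lower by the same rule. With correction for transcript length as well as the block, Ezh2 had an unadjusted p of 0.0092, and Dnmt3b and Tet1 had 0.224 and 0.282 (limma). The smallest adjusted p of the 10 was 0.314, for Tet1, with the block alone, and 0.269, for Ezh2, with length correction as well (limma).

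**Figure D2:**
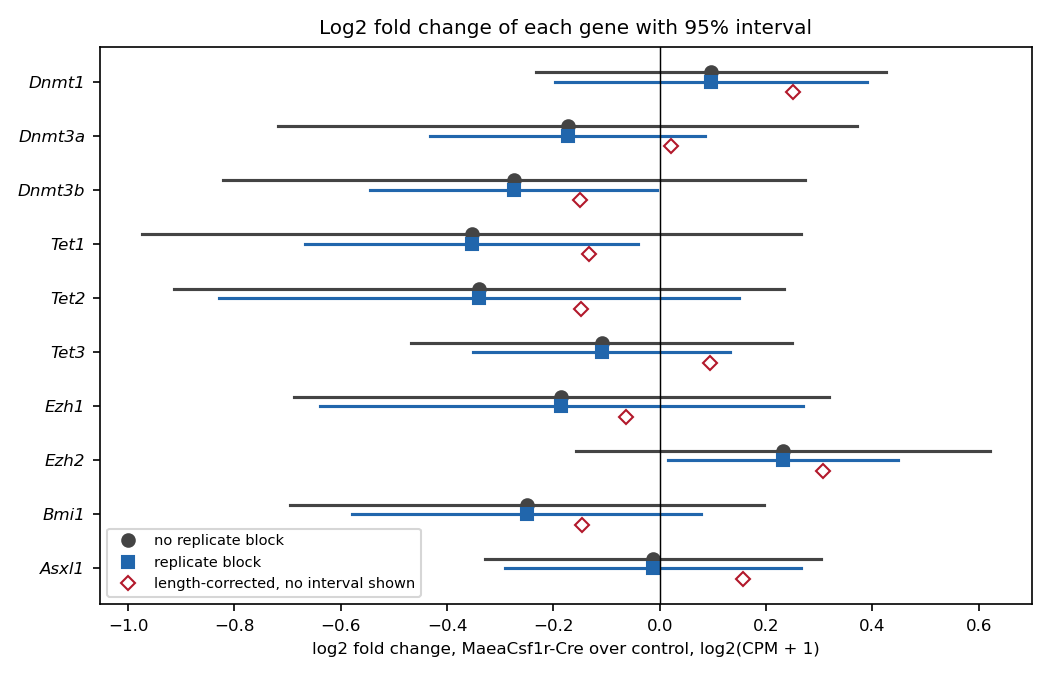
Log2 fold change of MaeaCsf1r-Cre over control on log2(CPM + 1) for each regulator. Grey circles and lines are limma's estimates with 95% intervals, blue squares and lines those with the replicate block, and open red diamonds the estimates after correction for transcript length, shown without an interval. The grey lines cross 0 for all 10 genes, the blue lines stay to one side of 0 for Dnmt3b, Tet1 and Ezh2, and the diamonds lie to the right of the other symbols.

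Among the DNA methyltransferases, Dnmt1, the maintenance enzyme, was the most abundant per transcript length, with close means in both genotypes. Dnmt1 (chromosome 9, 20907209 to 20959888 of GRCm38, minus strand) was at 157, 188 and 216 CPM in control replicates 1, 2 and 3, and at 214, 186 and 195 CPM in MaeaCsf1r-Cre replicates 1, 2 and 3. Control replicate 1 was the lowest and control replicate 3 the highest, and the MaeaCsf1r-Cre libraries lay between them. The mean was 187 ± 29.4 CPM in control and 198 ± 14.4 CPM in MaeaCsf1r-Cre HSCs (SD, n = 3 each), and the log2 fold change was 0.096 (standard error, SE, 0.14), which turned to -0.022 when control replicate 1 was left out. Within pairs the difference had no common sign, since the MaeaCsf1r-Cre library was 1.36-fold its control in pair 1 and 0.993-fold and 0.903-fold in pairs 2 and 3.

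The de novo enzyme Dnmt3a (chromosome 12, 3806007 to 3914443, plus strand) was at 47.6, 69.0 and 76.6 CPM in control replicates 1, 2 and 3. It was at 42.2, 69.8 and 59.2 CPM in the MaeaCsf1r-Cre replicates. Replicate 1 was the lowest of each genotype, and the 2 genotypes spanned much of the same range. Dnmt3a had a log2 fold change of -0.17 (SE 0.24, 95% interval -0.72 to 0.37, limma), and it was 0.022 after correction for transcript length and 0.025 without MaeaCsf1r-Cre replicate 1, so that its sign depended on both. The other de novo enzyme, Dnmt3b (chromosome 2, 153649450 to 153687730, plus strand), was at 44.7, 82.8 and 65.4 CPM in control and at 43.8, 62.6 and 49.4 CPM in MaeaCsf1r-Cre replicates 1, 2 and 3. The libraries with number 2 were the highest and those with number 1 the lowest in both genotypes, and in pair 1 the values were almost equal, at 0.980-fold, while pairs 2 and 3 both gave 0.759-fold. The mean of Dnmt3b was 64.3 ± 19.1 CPM in control and 51.9 ± 9.65 CPM in MaeaCsf1r-Cre HSCs (SD, n = 3 each), and the log2 fold change was -0.27 (SE 0.24, unadjusted p = 0.280, limma). It was -0.51 without control replicate 1, with an unadjusted p of 0.036 (limma), and -0.073 without control replicate 2. With the replicate block the unadjusted p of Dnmt3b was 0.0468 and the adjusted p 0.354 (limma).

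The Tet dioxygenases were the lowest of the 10 per transcript length, and their means were lower in MaeaCsf1r-Cre HSCs, by amounts that did not pass the test and, for Tet3, turned after correction for transcript length. Tet1 (chromosome 10, 62804570 to 62908996, minus strand) was at 19.4, 37.8 and 26.3 CPM in control and at 15.9, 25.0 and 22.6 CPM in MaeaCsf1r-Cre replicates 1, 2 and 3. Replicate 2 was highest and replicate 1 lowest in both genotypes, and each MaeaCsf1r-Cre library was below its same-numbered control, at 0.827-, 0.670- and 0.864-fold. The log2 fold change of Tet1 was -0.35 (SE 0.27, 95% interval -0.97 to 0.27, unadjusted p = 0.224, limma), the lowest of the 10, and with the replicate block the unadjusted p was 0.0314. Without control replicate 2 the value for Tet1 was -0.12, and without control replicate 1 it was -0.58. Correction for transcript length brought it to -0.13, and Tet1 had the longest transcript of the 10, at 14369 bases.

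Tet2 (chromosome 3, 133463679 to 133545139, minus strand), whose loss lets HSCs expand, was at 14.6, 22.1 and 15.0 CPM in control and at 10.4, 12.4 and 17.8 CPM in MaeaCsf1r-Cre replicates 1, 2 and 3. MaeaCsf1r-Cre replicates 1 and 2 lay below every control library, while replicate 3 lay above control replicates 1 and 3. Without MaeaCsf1r-Cre replicate 3 the genotypes of Tet2 no longer overlapped and the log2 fold change went from -0.34 (SE 0.25, limma) to -0.54, while it was -0.16 without control replicate 2 and -0.18 without MaeaCsf1r-Cre replicate 1. In every library Tet2 was the lowest of the 10, at an estimated 482 to 876 reads. Counting of so many reads alone would give an error of 3.38 to 4.56%, smaller than the spread between libraries. Tet3 (chromosome 6, 83362373 to 83459084, minus strand) was at 40.6, 54.1 and 51.6 CPM in control and at 40.1, 46.9 and 47.8 CPM in MaeaCsf1r-Cre replicates 1, 2 and 3. Each MaeaCsf1r-Cre library lay just below its same-numbered control, at 0.870- to 0.988-fold. For Tet3 the log2 fold change was -0.11 (SE 0.16), with a range of -0.23 (without control replicate 1) to -0.031 (without control replicate 2 or MaeaCsf1r-Cre replicate 1) over left-out libraries, and after correction for transcript length it was 0.094, with every corrected MaeaCsf1r-Cre value above every control value. The sign for Tet3 thus depended on that correction.

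Ezh2 and Ezh1, the alternative catalytic subunits of PRC2, had means that lay on opposite sides, Ezh2 higher and Ezh1 lower in MaeaCsf1r-Cre HSCs, and neither passed the test. Ezh2 (chromosome 6, 47530139 to 47595341, minus strand), which is the form of dividing cells, was at 72.1, 52.7 and 64.4 CPM in control and at 83.04, 61.6 and 77.9 CPM in MaeaCsf1r-Cre replicates 1, 2 and 3. The order of the replicates was the same in both genotypes, with replicate 1 the highest and replicate 2 the lowest, and the step within a pair was alike, at 1.15-, 1.17- and 1.21-fold. The mean of Ezh2 was 63.1 ± 9.73 CPM in control and 74.2 ± 11.2 CPM in MaeaCsf1r-Cre HSCs (SD, n = 3 each), and the log2 fold change was 0.23 (SE 0.17, 95% interval -0.16 to 0.62, unadjusted p = 0.206, limma). With the replicate block the 95% interval was 0.015 to 0.45 and the adjusted p 0.335 (limma). The log2 value for Ezh2 was 0.11 without control replicate 2, 0.15 without MaeaCsf1r-Cre replicate 1 and 0.31 after correction for transcript length.

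Ezh1 (chromosome 11, 101191115 to 101226463, minus strand), which is retained in cells that divide little, was at 29.5, 45.5 and 32.6 CPM in control and at 28.4, 26.3 and 39.4 CPM in MaeaCsf1r-Cre replicates 1, 2 and 3. Its pairs did not share a direction, at 0.964-, 0.587- and 1.20-fold, and control replicate 2 stood above the other 5 libraries. The log2 fold change of Ezh1 was -0.19 (SE 0.22, limma), and it was -0.0051 without control replicate 2, -0.074 without MaeaCsf1r-Cre replicate 2 and -0.36 without MaeaCsf1r-Cre replicate 3. The ratio of Ezh2 to Ezh1 CPM within a library was 2.45, 1.16 and 1.97 in control and 2.93, 2.34 and 1.98 in MaeaCsf1r-Cre replicates 1, 2 and 3. The ratio was higher in the MaeaCsf1r-Cre library of all 3 pairs, in pair 3 by almost nothing. The mean log2 ratio differed by 0.43 between the genotypes (two-sided exact permutation test over 20 labellings, p = 0.4, adjusted p = 0.6 over 3 ratios), where 0.1 is the smallest p that 3 libraries against 3 can give. Flipping the signs of the 3 paired differences gave an exact p of 0.25, the smallest possible. Without control replicate 2 the difference in the log2 ratio was 0.12.

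**Figure D3:**
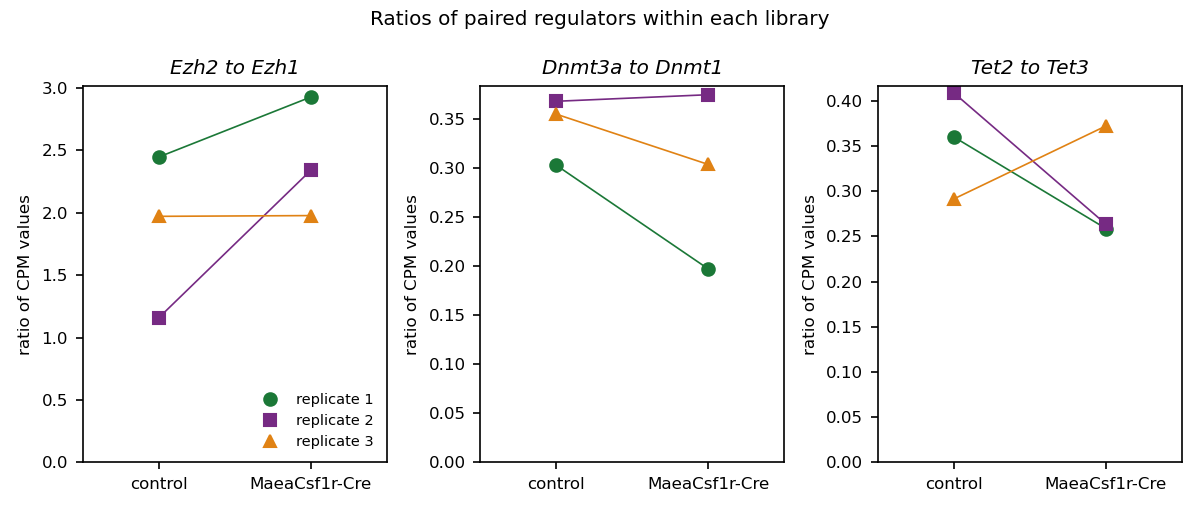
Ratios of the CPM of 2 regulators within each library, with control on the left and MaeaCsf1r-Cre on the right of each panel and a vertical axis from 0. Points are libraries and lines join the same replicate number. The Ezh2 to Ezh1 lines go from 2.45 to 2.93, from 1.16 to 2.34 and from 1.97 to 1.98, and each of the other ratios has lines that go up and lines that go down.

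The other 2 ratios had no common direction among pairs. Dnmt3a to Dnmt1, de novo against maintenance enzyme, was 0.303, 0.368 and 0.355 in control and 0.197, 0.375 and 0.304 in MaeaCsf1r-Cre replicates 1, 2 and 3. The log2 difference was -0.27 (exact permutation p = 0.7, adjusted p = 0.7), and MaeaCsf1r-Cre replicate 1 was the lowest library, without which the difference was -0.015. Tet2 to Tet3 was 0.360, 0.409 and 0.292 in control and 0.259, 0.264 and 0.372 in MaeaCsf1r-Cre replicates 1, 2 and 3, a log2 difference of -0.25 (exact permutation p = 0.3, adjusted p = 0.6). MaeaCsf1r-Cre replicates 1 and 2 lay below every control, and replicate 3 lay above control replicates 1 and 3.

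Stretches around annotated starts of Ezh2, Ezh1 and Dnmt1 are shown. Ezh2 and Dnmt1 were chosen as the regulators with a higher mean in MaeaCsf1r-Cre HSCs, and Ezh1 as the alternative of Ezh2 in PRC2. E2F factors drive genes of the cell cycle, and their 8-letter sites TTTCCCGC, TTTGGCGC, TTTCGCGC and TTTGCCGC were searched on both strands in windows from 250 bases before to 50 bases after each start. All 10 regulators matched the RefSeq windows of GRCm38.p6, with 14 windows in all, and a match was found for 2 genes, Ezh2 and Dnmt1, in 1 window each. Of all 32851 windows, 744 or 2.26% held a match. That share is per window and not per gene, and 13 of the 14 windows of the regulators had more CpG than the median window, so the shares are not alike. The motif was chosen after the expression values were seen, a match is a description of letters and not a bound site, and no match says only that these letters are not in the window. Printed here, 5′ to 3′ on the minus strand and from 250 bases before to 30 bases after the start, are chr6:47595001-47595280 (Ezh2), chr11:101226434-101226713 (Ezh1) and chr9:20952594-20952873 (Dnmt1, 1 of 3 start windows), with matches in capitals.
Ezh2: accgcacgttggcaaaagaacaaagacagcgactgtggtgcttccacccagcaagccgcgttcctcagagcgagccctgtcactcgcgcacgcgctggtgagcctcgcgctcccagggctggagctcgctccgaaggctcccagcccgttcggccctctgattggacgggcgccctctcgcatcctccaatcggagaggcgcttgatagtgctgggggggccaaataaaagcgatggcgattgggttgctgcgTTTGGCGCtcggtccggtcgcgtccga
Ezh1: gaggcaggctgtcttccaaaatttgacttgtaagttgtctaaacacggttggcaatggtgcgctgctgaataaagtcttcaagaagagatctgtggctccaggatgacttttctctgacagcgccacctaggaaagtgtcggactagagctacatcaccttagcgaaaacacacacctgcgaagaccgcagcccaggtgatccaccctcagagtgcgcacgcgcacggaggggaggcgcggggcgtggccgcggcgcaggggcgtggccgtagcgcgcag
Dnmt1: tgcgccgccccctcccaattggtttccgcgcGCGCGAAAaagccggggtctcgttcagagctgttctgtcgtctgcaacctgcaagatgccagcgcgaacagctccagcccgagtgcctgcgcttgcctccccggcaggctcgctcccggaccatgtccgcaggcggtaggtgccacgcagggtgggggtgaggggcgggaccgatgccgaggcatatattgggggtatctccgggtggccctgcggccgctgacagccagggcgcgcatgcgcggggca
In Ezh2 the capitals are TTTGGCGC, which begins at base 4 of the transcript. In Dnmt1 they are GCGCGAAA, the reverse complement of TTTCGCGC, which begins 219 bases before this start, and TTTGGCGC begins at base 34 of the transcript, just past the printed stretch. This Dnmt1 window was printed because it held the most matches. It lies inside the annotated gene, downstream of the Dnmt1 windows at chr9:20952930-20953229 and chr9:20959839-20960138, which held 0 matches. The Ezh1 stretch has no capitals. CpG dinucleotides, the substrate of the DNA methyltransferases, numbered 31 in the Ezh2 window, 23 in the Ezh1 window and 33 in this Dnmt1 window of 300 bases, against a median of 7 over all windows, and 13 of the 14 windows of the regulators lay above that median. The highest number was 57, in the window of Tet2.

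Bmi1 and Asxl1 act on the ubiquitin mark of histone H2A from opposite sides, and neither passed the test. Bmi1 (chromosome 2, 18677018 to 18686629, plus strand), the PRC1 subunit needed for HSC self-renewal, was at 44.0, 47.1 and 71.1 CPM in control and at 45.6, 41.0 and 46.5 CPM in MaeaCsf1r-Cre replicates 1, 2 and 3. Control replicate 3 stood apart, and the other 5 libraries lay between 41.0 and 47.1 CPM. The log2 fold change of Bmi1 was -0.25 (SE 0.19, unadjusted p = 0.231, limma), and it was -0.039 without control replicate 3. Asxl1 (chromosome 2, 153345829 to 153404007, plus strand), a partner of Bap1, was at 64.9, 72.2 and 58.2 CPM in control and at 58.2, 64.8 and 70.4 CPM in MaeaCsf1r-Cre replicates 1, 2 and 3. Its means were 65.1 ± 6.999 and 64.5 ± 6.12 CPM (SD, n = 3 each), and the fold change of 0.991 had a 95% interval of 0.797 to 1.23 (limma). The sign for Asxl1 was not stable, at -0.012 on the log2 scale and above 0 after either rescaling and after correction for length.

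Levels were compared between genes per kilobase of the longest annotated transcript, since longer transcripts give more reads, and the isoforms in use were not known. On this scale Dnmt1 was the highest of the 10 in every library, at 31.8 ± 5.01 CPM per kb in control and 33.8 ± 2.44 in MaeaCsf1r-Cre HSCs (SD, n = 3 each). Ezh2 followed at 22.6 and 26.6 CPM per kb, then Bmi1 at 15.0 and 12.3 and Dnmt3b at 14.9 and 12.0. The middle ranks held Asxl1 at 9.32 and 9.24 CPM per kb, Ezh1 at 8.53 and 7.46, Dnmt3a at 6.65 and 5.89 and Tet3 at 4.47 and 4.12, each as means in control and MaeaCsf1r-Cre HSCs. Tet1, at 1.94 and 1.47, and Tet2, at 1.88 and 1.47 CPM per kb, were the lowest. Of the neighbours in this order only Tet3 and Tet1 had ranges over the 6 libraries that did not overlap, and the ranges of the other neighbours overlapped. Within libraries, though, Dnmt1 was above Ezh2, Ezh2 above Bmi1, Dnmt3b above Asxl1 and Dnmt3a above Tet3 in 6 of 6. The order was not the same in every library for Bmi1 over Dnmt3b (4 of 6), Asxl1 over Ezh1 (5 of 6), Ezh1 over Dnmt3a (4 of 6) and Tet1 over Tet2 (3 of 6).

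**Figure D4:**
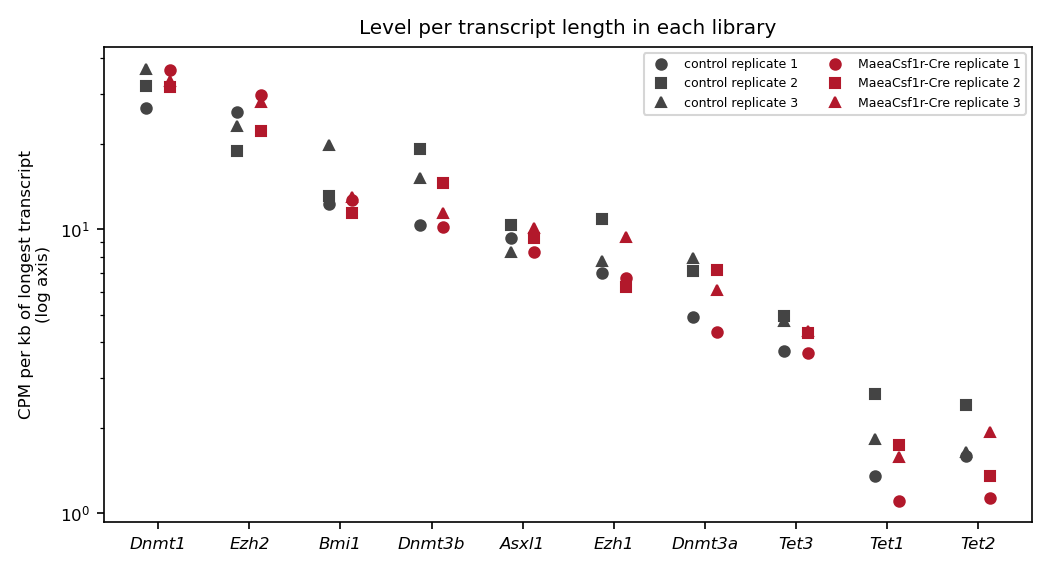
Level of each regulator in CPM per kb of its longest transcript, on a log axis, with genes ordered by their mean. Grey symbols are control and red symbols MaeaCsf1r-Cre libraries, and the shape gives the replicate number. Dnmt1 spans 26.8 to 36.8 CPM per kb, and a gap separates Tet3, with a lowest value of 3.68, from Tet1 and Tet2, with highest values of 2.63 and 2.41.

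Fold changes over all genes were lower for longer transcripts. Spearman's rho between log2 fold change and transcript length was -0.314 across the 12449 genes with a length, which share the same 6 libraries and are not independent. The regulators have long transcripts, with a median of 6425.5 bases against 2934 over all those genes, and 9 of 10 were longer than that median. After correction for length the median log2 fold change of the 10 was -0.021, against 0.014 for all genes. Of the 8 regulators with a lower mean, Dnmt3b, Tet1, Tet2, Ezh1 and Bmi1 kept a negative sign and Dnmt3a, Tet3 and Asxl1 took a positive one. Other annotated genes overlap the exons of 4 regulators on the opposite strand, by at most 2.65% of their exon bases, and the strongest of these genes, beside Asxl1, was at 2.57 to 4.59 CPM.

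The replicates differed from each other in a way that both genotypes shared. Replicate 1 was the lowest library of both genotypes for 5 of the 10 regulators, Dnmt3a, Dnmt3b, Tet1, Tet2 and Tet3, where this held for 28.7% of all genes tested. It was the highest of both genotypes for Ezh2 alone among the regulators, a pattern of 23.5% of all genes. The 12 HSC markers, Kit and Hlf among them, were lowest in replicate 1 of both genotypes in 12 of 12 cases. The 20 cell division genes were highest in replicate 1 of both genotypes in 14 of 20, and their summed level was 2499 CPM in control and 2848 CPM in MaeaCsf1r-Cre replicate 1. Thus in replicate 1 of each genotype Ezh2 and most cell division genes were highest, and HSC markers, de novo methyltransferases and Tet genes lowest. The summed level of the 6 erythroid genes was also highest there, at 7084 CPM in control and 7025 CPM in MaeaCsf1r-Cre replicate 1. The pattern was of replicate 1 only. MaeaCsf1r-Cre replicate 3, with 2659 CPM of cell division genes, had the highest HSC marker sum of its genotype, 1421 CPM. The part of these differences between replicates in the values of the regulators was not tested.

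Genes related to the regulators, partners and others, were then counted in lists. Of 107 listed genes, 105 were in the table and 91 were expressed enough to be tested, and 0 had an adjusted p under 0.05 with limma (0.00772% over all genes), with or without the block, while 5 of 91 had an unadjusted p under 0.05, and 15 of 91 with the block, where 3.99% and 13.9% of all genes did. In these lists a lower or higher mean is one on log2(CPM + 1). Of 26 PRC1 genes 19 had a lower and 7 a higher mean in MaeaCsf1r-Cre HSCs, with a median log2 fold change of -0.19 that was -0.068 after correction for length. The groups did not overlap for 4 of the 26, all lower, where 6.06% of all genes were lower in this way, and 11 were lower in all 3 pairs, where 23.5% of all genes were.

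The 4 PRC1 genes were Pcgf3, Mga, Yaf2 and Cbx8. Pcgf3, which stands in the place of Bmi1 in a variant PRC1, was at 24.6, 26.5 and 24.2 CPM in control and at 18.2, 14.0 and 17.7 CPM in MaeaCsf1r-Cre replicates 1, 2 and 3. All MaeaCsf1r-Cre libraries of Pcgf3 lay under all control libraries, and the log2 fold change was -0.57 (SE 0.16, unadjusted p = 0.00767, adjusted p = 0.967, limma). Mga, a DNA-binding subunit of another variant PRC1, was at 47.7, 54.4 and 65.8 CPM in control and at 39.3, 39.7 and 45.6 CPM in MaeaCsf1r-Cre replicates 1, 2 and 3, a log2 fold change of -0.41 (SE 0.15). Yaf2, an adaptor of variant PRC1, was at 50.02, 45.3 and 57.2 CPM in control and at 41.6, 40.1 and 39.7 CPM in MaeaCsf1r-Cre replicates 1, 2 and 3, a log2 fold change of -0.32 (SE 0.13). After correction for length Pcgf3, Mga and Yaf2 were at -0.39, -0.19 and -0.30 on the log2 scale. Cbx8, a chromodomain subunit of canonical PRC1, was at a mean of 8.66 CPM in control and 6.74 CPM in MaeaCsf1r-Cre HSCs. Rnf2, the main catalytic subunit of PRC1, had means of 76.8 and 61.4 CPM and lay lower in all 3 pairs, and its relative Ring1 had means of 21.9 CPM in both. None of these genes passed the adjusted test.

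Of 11 genes listed for PRC2, which include the demethylases Kdm6a and Kdm6b, 9 had a lower and 2 a higher mean. Their median log2 fold change was -0.069, near the -0.058 of all genes, and after correction for length it was 0.016, against 0.014. Of the 11, 0 had groups that did not overlap, as 8.55% of all genes had. The core subunits Eed and Suz12 were at means of 61.8 and 100.2 CPM in control and 65.4 and 98.5 CPM in MaeaCsf1r-Cre HSCs, with log2 fold changes of 0.060 (SE 0.17) and -0.038 (SE 0.15). The smallest unadjusted p of the list were those of the accessory subunits Jarid2, at -0.23 (SE 0.16), and Aebp2, at -0.14 (SE 0.14), and of the demethylase Kdm6b, at -0.17 (SE 0.18), all on the log2 scale. After correction for length these 3 values were -0.070, 0.016 and -0.0087. The core subunits that act with Ezh2 thus differed between the genotypes by less than their SE.

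Of 23 further genes of DNA methylation 12 had a lower and 11 a higher mean, with a median log2 fold change of -0.052 that was 0.091 after correction for length. Uhrf2, a reader of modified cytosine, was at 82.7, 72.0 and 84.1 CPM in control and at 61.6, 50.5 and 70.4 CPM in MaeaCsf1r-Cre replicates 1, 2 and 3. Its groups did not overlap, and its log2 fold change of -0.39 (SE 0.15, unadjusted p = 0.0336, limma) was the single one of the list with an unadjusted p under 0.05, and it was lower, as 3.19% of all genes were by this rule. Its relative Uhrf1, which brings Dnmt1 to replicated DNA, was at means of 143 and 154 CPM, a log2 fold change of 0.11 (SE 0.15). Trim28, a corepressor, was the other gene whose groups did not overlap, at 307 to 334 CPM in control and 340.3 to 358 CPM in MaeaCsf1r-Cre libraries, so that 1 of 23 was lower and 1 higher without overlap, where 6.06% and 2.49% of all genes were. Zbtb38 and Kdm2a, which bind methylated and unmethylated CpG, had log2 fold changes of -0.32 (SE 0.16) and -0.30 (SE 0.18). After correction for length Uhrf2, Zbtb38 and Kdm2a were at -0.29, -0.14 and -0.11.

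Of 8 genes listed for PR-DUB, among them Asxl2, a relative of Asxl1, 7 had a lower and 1 a higher mean. Their median log2 fold change was -0.10, and 0.093 after correction for length. The 1 with a higher mean was the deubiquitinase Bap1, at means of 121 and 123 CPM, and Mbd6, counted as lower, was at almost equal means of 14.6 and 14.7 CPM. The forkhead factor Foxk1 was the 1 gene whose groups did not overlap, at 12.3 to 14.1 CPM in control and 9.65 to 12.2 CPM in MaeaCsf1r-Cre libraries, where 6.06% of all genes were lower in this way. Ogt, a glycosyltransferase, was at a log2 fold change of -0.34 (SE 0.15) and Mbd5 at -0.25 (SE 0.22), and after correction for length they were at -0.19 and -0.066. Of 14 trithorax group genes, which place or support activating methyl marks and oppose Polycomb, 9 had a lower and 5 a higher mean. Their median log2 fold change was -0.032, and 0.076 after correction for length. The trithorax proteins Kmt2c, Ash1l and Kmt2e had fold changes on the log2 scale of -0.34 (SE 0.22), -0.23 (SE 0.23) and -0.15 (SE 0.16). After correction for length these were -0.11, -0.022 and 0.027. Rbbp5, a core subunit, was the 1 gene whose groups did not overlap, at means of 54.8 and 50.8 CPM, and 6.06% of all genes were lower without overlap.

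Genes known as targets of Polycomb repression were mostly silent or low. Of 20 listed, 9 were expressed enough to be tested, 7 with a lower and 2 with a higher mean in MaeaCsf1r-Cre HSCs, and the median log2 fold change was -0.30, and -0.23 after correction for length. Cdkn2a, the target of Bmi1 best known in HSCs, was listed at 0 in all 6 libraries, as were Pax5 and Gata4. Cdkn1c, an inhibitor of cyclin-dependent kinases found in quiescent HSCs, was at 11.6, 25.6 and 27.4 CPM in control and at 4.76, 13.1 and 15.7 CPM in MaeaCsf1r-Cre replicates 1, 2 and 3. Each MaeaCsf1r-Cre library of Cdkn1c lay below its same-numbered control, while the genotypes overlapped, and the log2 fold change was -0.94 (SE 0.46), with an adjusted p of 0.967 that was 0.141 with the block (limma). Hoxa5 had means of 3.25 and 1.49 CPM, Hmga2 of 2.03 and 1.06 CPM and Igf2bp2 of 5.38 and 2.89 CPM in control and MaeaCsf1r-Cre HSCs, and with the block these 3 and Cdkn1c were the 4 of 9 with an unadjusted p under 0.05 (limma), all lower, where 10.8% of all genes were. Replicate 1 was the lowest of both genotypes for 7 of the 9, as it was for the HSC markers. Cdkn1a and Hoxb4, the 2 with a higher mean, had log2 fold changes of 0.25 (SE 0.25) and 0.16 (SE 0.24).

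**Figure D5:**
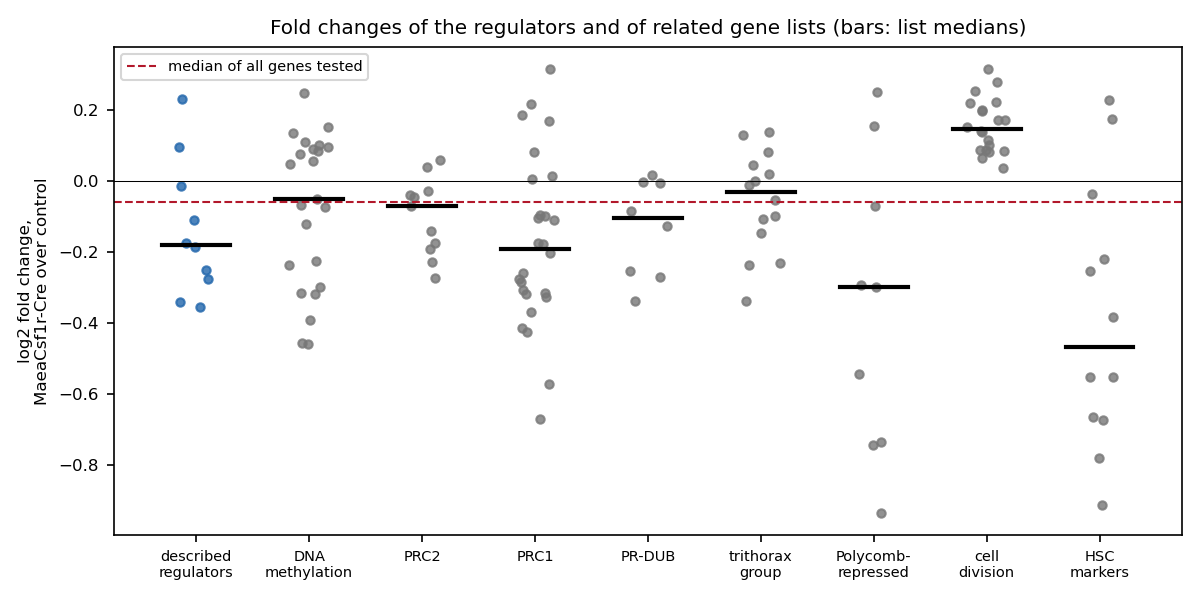
Log2 fold change of MaeaCsf1r-Cre over control for the 10 regulators (blue) and for the genes of the related lists, the cell division list and the HSC marker list (grey), 1 point per gene tested. Black bars are list medians, from -0.47 for HSC markers to 0.15 for cell division, and the dashed red line is the median of all genes tested, -0.058. The horizontal scatter within a list carries no value.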

How the data were processed

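RNA was sequenced from HSCs of 3 control and 3 MaeaCsf1r-Cre libraries. Libraries were made from total RNA with SMART-Seq v4 and Nextera XT kits, which do not mark strand. Per the methods and the submitters' processing notes, the authors used Trim Galore, mapped the single-ended reads on mm10 by STAR 2.5.3a and counted them over Ensembl transcripts with normalisation in Partek Flow. The deposited unit is CPM, with an offset of 1e-04 in every cell, which was subtracted first. Steps between low values gave 32952000 to 39598000 reads behind the scaling in control and 44142000 to 60916000 in MaeaCsf1r-Cre libraries, so that 3 reads were worth 0.0492 to 0.091 CPM (counting error only). No control library was as deep as a MaeaCsf1r-Cre library. Of values under 0.3 CPM, 78.2 to 80.3% lay within 0.05 of a whole read, so reads were not recovered and no count test was used.

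A gene was tested where 3 or more libraries had 1 CPM or more. Tests on log2(CPM + 1) used limma's moderated test with a mean-variance trend, two-sided, Benjamini-Hochberg adjusted over 12955 genes, and adjusted p under 0.05 was called. Fold changes on this scale understate those of low genes. Ratios were compared by exact permutation tests. The replicate numbers come from the sample titles, which do not say what they share. They were taken as pairs because same-numbered libraries deviated together over the tested genes, with Pearson's r of 0.627, 0.523 and 0.397 between their deviations. For other numbers r was -0.459 to -0.0538. Deviations were taken from the mean of 3 libraries, so values above 0 for the same numbers in part fix those for other numbers below 0. The fits were also made with the number as a block, with values given where they alter a count or call. Fold changes were corrected for length with a loess curve (span 0.5) on the longest transcript in GENCODE M21 basic, which was also used for CPM per kb.

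The 10 regulators, the 6 lists of related genes and the marker lists were chosen with earlier results of these data known, so their counts are descriptions. Genes named were the 10 regulators, Maea, the 3 genes with the smallest p of each related list, genes of highest level of marker lists, and any gene of a count of 5 or fewer. Some marker genes are not reported here by name. Core subunits Eed, Suz12, Rnf2, Ring1 and Bap1 and Uhrf1 were added for their role after their values were seen. Alternatives were a pseudocount of 0.1, no filter, a CPM of at least 10, median-ratio rescaling, quantile normalization, the block, no trend, length correction with and without the block, and each library left out. In simulated data of 12955 genes made for this comparison, limma called 165 of the 200 genes given a 4-fold change and 7 others, and it called 0 when no gene was altered. The simulated libraries were independent, without the shared deviations of same-numbered libraries, and the altered genes were drawn from those above a set level. Smaller changes were not simulated, so the recovery does not carry over to the regulators. Versions were R 4.3.3, limma 3.58.1, Python 3.11.15, pandas 2.3.3, numpy 2.4.6 and matplotlib 3.10.9. RNA of lymphoid-primed progenitors was not analysed here.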

Additional observations from a re-analysis of the deposited data

How the results depend on the processing

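Under all alternatives 0 of the 10 regulators and 0 of the related genes were called. At an unadjusted p under 0.05 (limma) the counts were 0 and 5 without the replicate block and 3 and 15 with it, where 3.99% and 13.9% of all genes passed. Among the other alternatives, length correction with the block counted Ezh2 alone of the regulators, and leaving out control replicate 1 counted Dnmt3b alone. Over all genes 1 was called, and with the replicate block also 1, which changed no call of a regulator or list. The count was 10 with no filter on low values, 0 with a CPM of at least 10, 2 with length correction and the replicate block, and 0 to 3 over the 6 fits that each left out a library, with 0 without control replicate 2 or 3 and 3 without MaeaCsf1r-Cre replicate 3. The number of regulators whose genotypes did not overlap was 1 after length correction (Tet3, higher), and 0 to 4 over the leave-one-out settings. It was 4 without control replicate 1 (Dnmt3b, Tet1, Tet3 and Bmi1, all lower), 1 without MaeaCsf1r-Cre replicate 2 (Ezh2, higher) and 2 without MaeaCsf1r-Cre replicate 3 (Tet2 and Ezh1, lower), so that these libraries decide that count. Signs turned for uncalled values only. The log2 fold change of Asxl1 was 0.037 with median-ratio rescaling, 0.022 with quantile normalization and 0.16 with length correction, and ranged from -0.089 to 0.064 over the leave-one-out settings. Length correction turned Dnmt3a to 0.022 and Tet3 to 0.094, the same with the block. The leave-one-out range was -0.37 to 0.025 for Dnmt3a and -0.022 to 0.21 for Dnmt1, negative without control replicate 1. The other 6 regulators kept their sign under all alternatives run, and so did the 3 ratios. Rescaling moved the median of all genes by 0.047 (median ratios) and 0.073 (quantiles). With 3 libraries per genotype the 95% intervals leave room for a fold change of 0.509 in Tet1, and an exact test on a ratio could not fall below 0.1. The cause of these dependences was not tested.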
